A study of Mus musculus with 16 samples.

Results

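The genes described here are 10 mouse genes of serine synthesis, mitochondrial folate metabolism and the stress response run by the transcription factor ATF4. They are Phgdh, Psat1, Psph, Shmt2, Mthfd2, Asns, Atf4, Trib3, Chac1 and Ddit3, 10 of the 46078 genes in the count table, found there by symbol. The set was chosen by a readout of these libraries, because Psat1 was among the largest rises of the Ago2:polyA ratio with miR-106b, and the other 9 genes belong to the same pathways. All 10 passed the filter on low counts, as did 14897 of the 46078 genes.

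The cells were cultured juxtaglomerular (JG) cells, the type that makes renin in the kidney, and had been engineered with YFP under the renin promoter. They received a precursor of miR-106b, or a precursor of a microRNA that mammals do not have as the control. After 48 h, polyA RNA was taken from 4 replicate cultures of each transfection. From 4 further cultures of each, RNA bound to Ago2, the protein that carries microRNAs, was recovered by immunoprecipitation (Ago2-IP). The groups are named polyA control and polyA miR-106b for the total mRNA, and, for the bound RNA, Ago2-IP control or Ago2-IP miR-106b, with 4 libraries each. The comparisons ask which RNAs change in level or in binding to Ago2 when miR-106b is supplied. Levels are given in CPM, counts relative to library size, after TMM scaling within each RNA kind, and errors are SD over 4 libraries unless named otherwise.

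Total counts ran from 5692958 to 9459585 per library in polyA control and from 2815272 to 4554848 in polyA miR-106b, so that every polyA miR-106b library was shallower than every polyA control library. They ran from 3501909 to 4616424 in Ago2-IP control and from 2579086 to 3450269 in Ago2-IP miR-106b. The JG identity was not visible at the defining gene: Ren1, which encodes renin, had 0 counts in all 16 libraries. A count of 0 allows up to 3 counts, which is 0.317 CPM in the deepest library and 1.16 CPM in the shallowest, for counting error only. Akr1b7, another JG marker, had 6 counts in all. Within polyA miR-106b, replicate 1 stood apart from the other 3 libraries, with a chi-square per degree of freedom over genes of 18.1 to 27.1 against each of them, where they differed from each other by 6.21 to 11.9. Main results in polyA RNA are also given without it. In other groups replicate 4 was the farthest from its neighbours, at 3.65 to 7.93 against 1.65 to 3.40 among the other 3 libraries in polyA control, 5.88 to 9.73 against 2.06 to 3.39 in Ago2-IP control and 3.69 to 10.3 against 2.07 to 4.39 in Ago2-IP miR-106b.

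Serine is made from a glycolytic intermediate in a short chain of reactions run by Phgdh, Psat1 and Psph, and Shmt2 and Mthfd2 then pass its carbon into the folate cycle in mitochondria for making nucleotides. When amino acids run short or proteins misfold, kinases phosphorylate the translation factor eIF2, translation of Atf4 mRNA goes up, and ATF4 protein switches on the genes of serine and asparagine synthesis and amino acid transport. ATF4 is regulated largely at translation, so its RNA level is only a partial view of its activity.

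In polyA RNA, 8 of the 9 members other than Psat1 were lower with miR-106b, by 1.47-fold for Atf4 to 3.15-fold for Asns, and Ddit3 was not called different. A gene was called where the quasi-likelihood F test of edgeR, adjusted by Benjamini-Hochberg over 14897 genes, gave a p under 0.05. Over all genes 40.5% were called, 21.5% lower and 19.0% higher. This balance depended on the fit: 2410 genes were lower and 3828 higher with all 16 libraries in 1 fit. Without polyA control replicate 1, 2 or 3 the counts were 1826 and 2736, 1636 and 2487, and 1705 and 2579. Without polyA miR-106b replicate 1 they were 3208 and 3496, and under DESeq2 size factors 2642 and 3163. DESeq2's Wald test gave 2687 and 3216, and no filter gave 2730 and 2824. Without control replicate 4 the counts were 2978 and 2679, and 8 of 9 members were lower in each of these fits. The median log2 change was -1.16 over the 9 members and -0.05 over all genes. Psat1 is described without a test in every comparison, because its ratio chose the set. The p-values measure the spread between separately transfected cultures. In bulk RNA, fewer cells of a type and less RNA per cell cannot be told apart.

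Phgdh (ENSMUSG00000053398, chr3:98313169-98339990 in GRCm38) encodes the dehydrogenase that opens serine synthesis. Its polyA level was 216, 249, 229 and 174 CPM in control replicates 1 to 4, and 53.9, 83.3, 113 and 42.6 CPM in the miR-106b replicates. All miR-106b libraries lay below all control libraries, with replicate 3 the highest and replicate 4 the lowest of the miR-106b group. The fitted log2 change was -1.56 ± 0.26 (SE; edgeR quasi-likelihood F test, adjusted p = 0.00113), a 2.95-fold fall.

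Psat1 (ENSMUSG00000024640, chr19:15904677-15947337) encodes the aminotransferase of the middle step. It had 84.6, 84.4, 83.9 and 52.4 CPM in the polyA control libraries and 10.95, 25.4, 35.3 and 7.77 CPM in the polyA miR-106b libraries. Control replicate 4 was low against 3 nearly equal neighbours, yet still above every miR-106b library, and within the miR-106b group the libraries spanned a wider relative range than for any other member. The fitted log2 change was -1.93 ± 0.39 (SE), the 85th lowest of 14897 genes, and -1.61 without polyA miR-106b replicate 1.

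Psph (ENSMUSG00000029446, chr5:129765557-129787449) encodes the phosphatase that releases serine. Its polyA levels were 48.5, 58.7, 54.6 and 37.0 CPM in control and 23.2, 20.02, 29.2 and 18.1 CPM with miR-106b. The groups did not overlap, and replicate 4 was the lowest library on either side. The log2 change was -1.13 ± 0.18 (SE; edgeR quasi-likelihood F test, adjusted p = 0.000682).

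Of the mitochondrial enzymes, Shmt2 (ENSMUSG00000025403, chr10:127517122-127522444) splits serine into glycine and a folate-bound carbon. It measured 286, 281, 289 and 224 CPM in polyA control and 105, 139, 159 and 102 CPM in polyA miR-106b. Mthfd2 (ENSMUSG00000005667, chr6:83305690-83317606), which oxidizes that folate, measured 62.2, 70.5, 64.9 and 47.7 CPM in control and 26.1, 25.1, 28.6 and 17.0 CPM with miR-106b. For both genes the groups were separate and control replicate 4 was the lowest control library. Shmt2 changed by -1.09 ± 0.15 on the log2 scale and Mthfd2 by -1.33 ± 0.17 (SE; edgeR quasi-likelihood F test, adjusted p = 0.000682 for each).

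Asns (ENSMUSG00000029752, chr6:7675168-7693254), which makes asparagine and is a classic ATF4 target, had 66.3, 75.9, 77.5 and 53.4 CPM in polyA control. With miR-106b it had 22.3, 19.0, 32.2 and 12.2 CPM. All miR-106b libraries were below all controls, and its fitted fall was the largest among the members with a test, a log2 change of -1.65 ± 0.22 (SE; edgeR quasi-likelihood F test, adjusted p = 0.000682).

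Atf4 itself (ENSMUSG00000042406, chr15:80255183-80257540) differed less: 220.3, 239.6, 233 and 203 CPM in polyA control against 173, 123, 161 and 153 CPM with miR-106b. The groups were still separate, with miR-106b replicate 2 the lowest library and replicate 1 the nearest to the controls. The log2 change was -0.55 ± 0.12 (SE; edgeR quasi-likelihood F test, adjusted p = 0.00317), a 1.47-fold fall.

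The 3 effectors that ATF4 switches on did not all move alike. Trib3 (ENSMUSG00000032715, chr2:152337421-152344032), a pseudokinase that restrains AKT and ATF4, measured 19.3, 21.9, 19.2 and 16.6 CPM in polyA control and 7.82, 9.61, 11.3 and 5.18 CPM with miR-106b. Chac1 (ENSMUSG00000027313, chr2:119351228-119354381), which degrades glutathione, measured 28.9, 30.7, 36.1 and 25.8 CPM in control and 9.83, 14.95, 15.7 and 10.4 CPM with miR-106b. Each had separate groups, with log2 changes of -1.16 ± 0.21 for Trib3 (SE; adjusted p = 0.00105) and -1.25 ± 0.18 for Chac1 (SE; adjusted p = 0.000682) in edgeR's quasi-likelihood F test.

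Ddit3 (ENSMUSG00000025408, chr10:127290773-127296288), which encodes the pro-apoptotic factor CHOP, had 44.5, 40.9, 49.98 and 41.7 CPM in polyA control and 54.1, 32.6, 35.3 and 42.9 CPM with miR-106b. The groups overlapped: miR-106b replicate 1 was the highest of all 8 libraries and replicate 2 the lowest. Its log2 change of -0.10 ± 0.16 (SE; edgeR quasi-likelihood F test, adjusted p = 0.644) did not pass the threshold. It turned to 0.03 when all 16 libraries were fitted together, and was -0.19 without polyA miR-106b replicate 1. Of the 9 members other than Psat1, all but Ddit3 had every polyA miR-106b library below every control library, a pattern that 21.6% of all genes showed. Psat1 had this pattern too but is left out of the count, because its ratio chose the set. Without polyA miR-106b replicate 1 the same 8 members were called, with log2 changes from -0.54 for Atf4 to -1.58 for Asns, and 6704 genes were called in all in place of 6034.

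**Figure D1:**
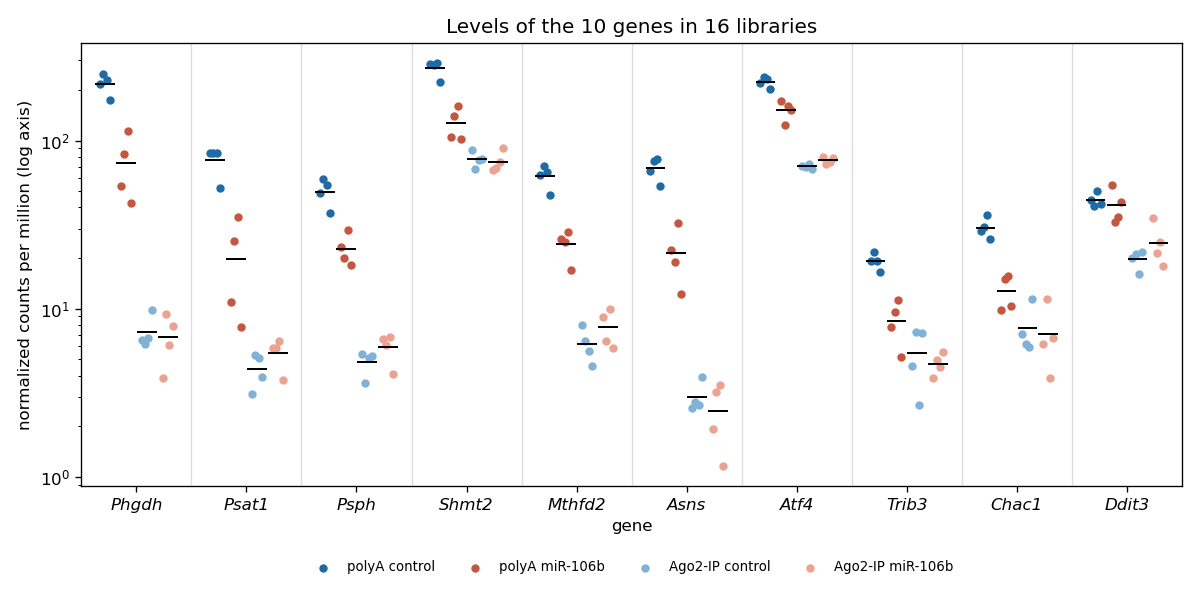
Normalized CPM on a log axis for each of the 10 genes, with 1 point per library, colours for the 4 groups and a black bar at each group's mean. The polyA miR-106b points of Psat1, from 7.77 to 35.3 CPM, lie below its polyA control points, from 52.4 to 84.6 CPM, while those of Ddit3 overlap its controls; the Ago2-IP points of each transfection overlap for every gene except Atf4.

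Per 100 counts of Atf4 in the same library, which needs no scaling between libraries, Psat1 went from 33.9 ± 5.53 in polyA control to 13.5 ± 9.01 in polyA miR-106b. Asns went from 30.3 ± 2.97 to 14.1 ± 5.02 and Phgdh from 96.4 ± 7.77 to 49.3 ± 22.9. Shmt2 overlapped on this scale, at 110.2 to 129.8 in control and 60.9 to 113 with miR-106b. Ddit3 went the other way, from 17.1 to 21.5 per 100 Atf4 counts in the controls and from 21.9 to 31.3 with miR-106b, so that its ranges touched closely without overlapping. These ratios were not tested.

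Per kilobase of exon, levels can be set beside each other between genes. In polyA control the highest were Atf4 at 95.0 ± 6.87, Phgdh at 87.2 ± 12.9 and Shmt2 at 86.8 ± 9.97 CPM per kb, which overlapped each other. A gap followed, then Ddit3 (25.9), Asns (24.96), Chac1 (18.5), Psat1 (17.9) and Mthfd2 (17.6), each overlapping its neighbour. Psph (11.5) and Trib3 (9.04) were lowest, and Psph was below every library of Mthfd2 by a small margin but overlapped Psat1. In polyA miR-106b, Atf4 stood alone at 64.7 ± 9.01 CPM per kb, followed by Shmt2 (40.7), Phgdh (29.5) and Ddit3 (24.1). Phgdh overlapped both Shmt2 and Ddit3, which were apart from each other. The remaining genes ran without a gap from Asns at 7.84 to Trib3 at 3.99, with Psat1 at 4.66 ± 3.01. Psat1 thus moved from rank 7 to rank 9 of the 10 genes, and Ddit3 came to overlap Phgdh, from which it was apart in polyA control.

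In Ago2-IP control the order per kilobase was Atf4 (29.8 ± 0.772), Shmt2 (24.9 ± 2.53), Ddit3 (11.5 ± 1.46) and Chac1 (4.66 ± 1.55), each separate from the next. Chac1 and the genes from Phgdh (2.94) through Trib3 (2.55) to Mthfd2 (1.77) overlapped their neighbours. The lowest, which overlapped each other, were Psph (1.12), Asns (1.09) and Psat1 (1.03). Psph and Psat1 were apart from Mthfd2, while Asns overlapped it. With miR-106b, the Ago2-IP order was the same at the top, led by Atf4 at 32.3 ± 1.33, and Asns came last at 0.901 ± 0.406 CPM per kb.

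In Ago2-IP RNA, none of the 9 members was called between transfections, and none had an unadjusted p under 0.05 in edgeR's quasi-likelihood F test. Over all 14897 genes this test called 0%, or 0 genes, with 827 at an unadjusted p under 0.05, while DESeq2's Wald test called 2 and edgeR's likelihood ratio test 18. The fit called 40 genes when Ago2-IP miR-106b replicate 4 was left out, 4 when replicate 1 of that group was, and 10 when the fourth Ago2-IP control library was, with 0 members among them. Psat1 measured 3.13, 5.31, 5.11 and 3.93 CPM in control and 5.81, 5.84, 6.44 and 3.78 CPM with miR-106b, from 11 to 20 counts per library. The miR-106b group held both the highest value and a library inside the control range, and the fitted log2 change was 0.32 ± 0.32 (SE).

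Phgdh in Ago2-IP RNA measured 6.54, 6.14, 6.72 and 9.83 CPM in control and 3.87, 9.34, 6.12 and 7.86 CPM with miR-106b, so that the groups overlapped, with 2 miR-106b libraries below every control. Atf4 measured 70.3, 69.8, 72.6 and 68.1 CPM in control and 79.4, 73.0, 74.1 and 78.3 CPM with miR-106b. All 4 miR-106b values of Atf4 were above all controls, but by a small margin, and the log2 change of 0.12 ± 0.08 (SE; edgeR quasi-likelihood F test, adjusted p = 0.914) was not called. Scaled to library size only, these groups of Atf4 overlapped. Ddit3 measured 19.9, 21.2, 16.1 and 21.6 CPM in control and 34.5, 21.6, 24.8 and 18.0 CPM with miR-106b, a log2 change of 0.31 ± 0.16 (SE; edgeR quasi-likelihood F test, adjusted p = 0.888). The 9 fitted changes ran from -0.29 for Asns to 0.34 for Mthfd2, with a median of -0.04 beside 0.0011 over all genes. Asns rested on 4 to 18 counts per Ago2-IP library.

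Between the RNA kinds in control transfections, all 9 members were lower in Ago2-IP than in polyA RNA, where 73.3% of all genes differed and 37.9% were lower by the same test. The median log2 difference was -1.69 over the 9 members and -0.06 over all genes. For Phgdh the difference was -4.59 ± 0.14 (SE; edgeR quasi-likelihood F test, adjusted p = 4.21e-15), or 24.1-fold, and for Asns -4.21 ± 0.18 (SE; adjusted p = 5.58e-16). Psph at -3.08 and Mthfd2 at -3.06 followed, then Chac1 (-1.69), Trib3 (-1.54), Shmt2 (-1.53) and Atf4 (-1.40), and Ddit3 had the smallest at -0.89 ± 0.12 (SE; adjusted p = 4.94e-07). Psat1, with no test, differed by -3.85 ± 0.20 (SE). Every Ago2-IP control library was below every polyA control library in CPM for each of the 10 genes, as for 44.1% of all genes. These CPM were scaled within each RNA kind and not between the kinds. With library size only, the fit called 7113 genes lower in place of 5651, with all 9 members lower. Without the fourth library of polyA control or of Ago2-IP control, 10884 or 10671 genes were called in place of 10926, with all 9 members lower. The fitted differences were larger for the enzymes of serine and asparagine synthesis than for the ATF4 effectors.

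The Ago2:polyA ratio is the contrast that chose the set, so its values are a description with no test. On the log2 scale the ratio of Psat1 was -3.69 in control and -1.40 with miR-106b. The fitted change was 2.102 ± 0.63 (SE), rank 212 from the highest of 14897 genes. Its Ago2-IP level moved less than its polyA level, as given above. The others were Mthfd2 at 1.52, Phgdh at 1.33, Psph at 1.25, Asns at 1.21, Chac1 at 0.99, Shmt2 at 0.91, Trib3 at 0.82, Atf4 at 0.53 and Ddit3 at 0.26. Thus 10 of 10 were above 0 and 5 of 10, with Psat1, which chose the set, among them, rose by 2-fold or more, as 8.10% of all genes did. Under the other settings and with single libraries left out this count ran from 5 to 7, as Chac1 and Shmt2 passed the fold in some fits, and Asns was below it, at 0.99, without Ago2-IP miR-106b replicate 3. With no filter 7 of 10 members and 9569 of 31502 genes rose by 2-fold or more. With at least 10 counts in every library these were 5 of 9 members and 278 of 10149 genes. In the main fit the median was 1.10 over the 10 genes and -0.07 over all genes.

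Marker genes of other cell types moved with the polyA comparison in which the members fell. The 15 genes of dividing cells, led in level by Mki67, were all lower with miR-106b in the same test, beside 21.5% of all genes. Their median log2 change was -1.77. Without polyA miR-106b replicate 1, 14 of 15 were lower, with a median of -1.41, and with no filter on low counts 11 of 15 were lower. Their summed level was 1240, 1394, 1317 and 945 CPM in polyA control and 224, 444, 655 and 215 CPM in polyA miR-106b, scaled to library size. In Ago2-IP RNA the sum stayed between 157 and 177 CPM in all 8 libraries. Within polyA miR-106b, Psat1 and this sum put the libraries in 1 order, with replicate 3 highest, then 2, 1 and 4, and in polyA control replicate 4 was lowest for both. Examples are Mki67 at -1.91 ± 0.50 (SE; edgeR quasi-likelihood F test, adjusted p = 0.0165), Ccna2 at -1.99 ± 0.33 (adjusted p = 0.00122), Cdk1 at -1.91 ± 0.31 (adjusted p = 0.000986) and Top2a at -1.91 ± 0.50 (adjusted p = 0.016). The part of cell division in the levels of the 10 genes was not tested.

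Heart muscle genes moved the opposite way. Of 25 cardiac markers 23 were tested and 22 were higher in polyA RNA with miR-106b, beside 19.0% of all genes. Their median log2 change was 1.23. The most abundant was Myh6, the cardiac myosin heavy chain, and Sln had 2 counts in all libraries. The list held 2.86%, 2.23%, 2.41% and 3.17% of counts in polyA control and 4.35%, 7.53%, 5.45% and 7.29% in polyA miR-106b. It held 9.80% to 10.8% of counts in all Ago2-IP libraries of both transfections. The groups of polyA libraries did not overlap, and the Ago2-IP libraries were above both. Cardiac RNA was thus highest in the RNA kind in which all 10 genes were lowest, and higher in the polyA group in which 8 of the 9 tested members were lower; its part in these differences was not tested.

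Other markers in polyA RNA were 9 of 10 endothelial genes higher (median 1.14, led in level by Cdh5), 10 of 10 macrophage and leukocyte genes higher (1.196, C1qb) and 4 of 5 red cell genes, the hemoglobin genes, higher (1.24, Hbb-bs). Over all genes 19.0% were higher and 21.5% lower in this comparison. Of fibroblast genes 9 were higher and 1, Fn1 at -1.15, was lower (median 1.23, led over all libraries by Col1a1). In polyA control Fn1, at 10596 CPM, was above Col1a1, at 7443 CPM. Of 10 mural and smooth muscle genes 7 were higher and 1, Tagln at -0.48, was lower (1.01, Des). Without polyA miR-106b replicate 1 the endothelial count was 10 of 10, and 8 mural genes were higher and 2 lower. Of 4 JG markers 2 were tested and 1, Gja5, was higher, with Gja4 the most abundant. Both were higher under DESeq2 size factors, by DESeq2's Wald test and by edgeR's likelihood ratio test. They were also both higher in the fit of all 16 libraries and without polyA miR-106b replicate 1. With no filter 2 of 3 JG markers were higher. Of 10 kidney markers 4 were tested and 1, Lrp2 at -1.07, was lower, a call lost under DESeq2 size factors, in the fit of all 16 libraries and without polyA miR-106b replicate 1. Pax8, the most abundant kidney marker, had 179.7 ± 14.6 CPM in polyA control and 4.39 ± 4.998 CPM in Ago2-IP control, scaled to library size only as are the sums that follow. In polyA miR-106b replicate 1 the fibroblast list held 3.22% of counts against 2.18% to 2.33% in the other 3 libraries, 2.22% to 2.35% in polyA control and 2.02% to 2.11% in Ago2-IP RNA, and the kidney list summed to 506 CPM against 137 to 343 CPM. In Ago2-IP against polyA control 9 of 10 fibroblast genes were higher (median 1.84), as were 5275 of all 14897 genes. Fn1, at -2.41, was lower. The summed endothelial level was 441 to 596 CPM in polyA control, 679 to 1268 CPM in polyA miR-106b and 1514 to 1687 CPM over all Ago2-IP libraries, and the macrophage and leukocyte sum was 258 to 374, 511 to 873 and 1158 to 1269 CPM. The red cell sum was 28.5 to 43.6 CPM in polyA control, 65.0 to 113 in polyA miR-106b and 125 to 157 in Ago2-IP RNA. The mural and smooth muscle sum was 2583 to 2877, 3668 to 4621 and 5157 to 5710 CPM, and the JG sum 9.85 to 14.8, 13.2 to 23.8 and 25.2 to 38.9 CPM in the same order. Without Des, the most abundant gene of the list, the mural sum was 1572 to 1699, 1430 to 1872 and 1196 to 1290 CPM. In Ago2-IP against polyA control 8 of the 10 mural genes were higher (median 1.84). The 2 lower ones were Acta2 at -1.29 and Tagln at -2.19. The heart, endothelial, macrophage, red cell and fibroblast lists were thus present in all libraries. Their median changes in polyA RNA were close to each other, and that of the mural list was 1.01. Whether the libraries hold RNA from cells or tissue other than the cultured JG cells, such as heart, was not tested, nor was the part of any of these cell types in the members' values.

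**Figure D2:**
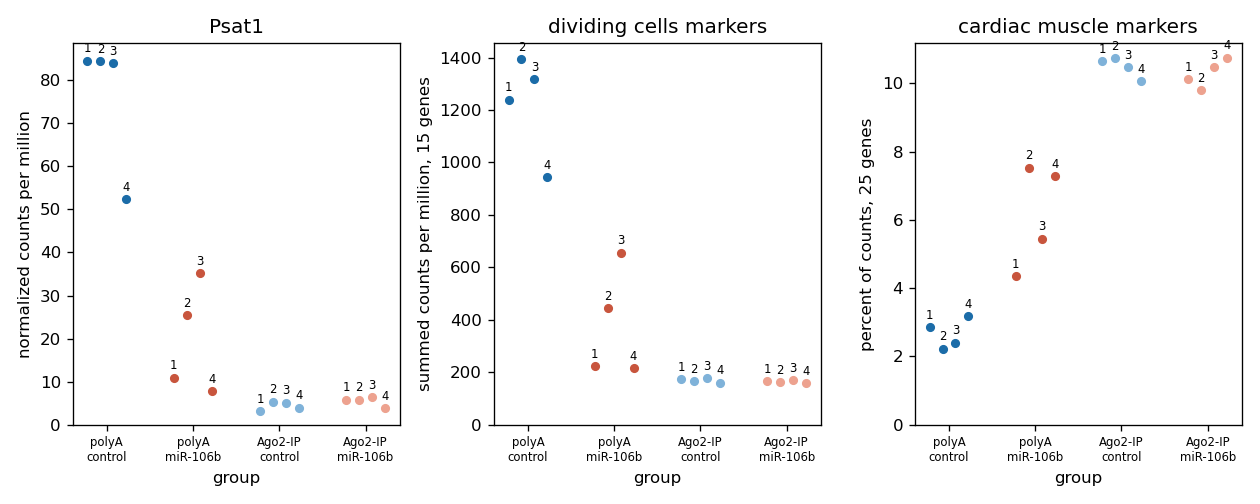
Psat1 in normalized CPM (left), the sum of 15 dividing cell markers in CPM (middle) and the share of counts in 25 cardiac markers in percent (right), with 1 point per library in the 4 groups and the replicate number beside it. In polyA miR-106b, Psat1 and the dividing cell sum are highest in replicate 3 and lowest in replicate 4, and the cardiac share runs from 4.35% to 7.53%.

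The genes whose pattern over the 16 libraries was nearest to that of Psat1, by root mean square distance of centred log2 CPM among 10946 genes, were Ccbe1 (0.30), Spag5 (0.31), Mki67 (0.32), Pop1 (0.33) and Lrp8 (0.35). Mki67 went from 171 ± 28.2 CPM in polyA control to 45.3 ± 35.0 in polyA miR-106b, with 15.3 ± 3.62 in Ago2-IP control. Ccbe1 went from 134.9 ± 22.8 to 39.8 ± 20.9 CPM, with 10.4 ± 1.81 in Ago2-IP control. Among the members, Mthfd2 was nearest to Psat1 at rank 72 with a distance of 0.54, then Psph at rank 101, Asns at 140 and Phgdh at 337. Chac1 (625), Trib3 (694) and Shmt2 (703) were farther off, Atf4 had rank 1114 and Ddit3 rank 2935. None of the other members was thus among the 5 nearest genes.

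Other genes of serine, glycine and folate metabolism shared the direction in part. Of 22 tested, 10 were lower and 3 higher in polyA RNA with miR-106b, beside 21.5% and 19.0% of all genes. The median log2 change was -0.52 beside -0.05 over all genes, and 9 were lower and 2 higher without polyA miR-106b replicate 1. Mthfd1l, a mitochondrial folate enzyme, changed by -1.97 ± 0.39 (SE; edgeR quasi-likelihood F test, adjusted p = 0.00359) from 67.4 ± 13.1 to 17.0 ± 12.1 CPM. Its mitochondrial partner Aldh1l2 changed by -1.45 ± 0.21 (adjusted p = 0.000682). Tyms, thymidylate synthase, was lower too at -1.06 (adjusted p = 0.00316), while Mtr, methionine synthase, was higher at 0.61 ± 0.14 (adjusted p = 0.00367), as were Aldh1l1 and Sds at low levels. In Ago2-IP RNA 0 of the 22 were called and 0 had an unadjusted p under 0.05, with a median of -0.01. Between RNA kinds in control, 13 of the 22 were lower in Ago2-IP RNA and 4 were higher, among them Mtr at 1.39 (median -0.59). Over all genes 73.3% were called in this comparison and 37.9% were lower. The median ratio change, with no test, was 0.43.

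Of 25 other ATF4 target genes 24 were found by symbol and 22 tested. In polyA RNA with miR-106b 11 were lower and 4 higher (median -0.36), beside 21.5% and 19.0% of all genes. Without polyA miR-106b replicate 1 the list's counts were 13 and 4. The lower ones included the amino acid transporters Slc7a1, at -1.19 ± 0.21 (SE; edgeR quasi-likelihood F test, adjusted p = 0.00121) from 339 ± 16.7 to 149 ± 56.0 CPM, Slc6a9 at -0.99 (adjusted p = 0.00152) and the cystine carrier Slc7a11 at -0.90 (adjusted p = 0.0101). Aldh18a1, of proline synthesis, was lower at -1.05 (adjusted p = 0.000755). Vldlr at 0.67 (adjusted p = 0.00322), Stc2 at 0.66 (adjusted p = 0.00415) and Ddit4 at 0.44 (adjusted p = 0.0129) were higher, as was Gdf15 at a low level, so that the list did not move as a block. In Ago2-IP RNA 0 were called and 1 had an unadjusted p under 0.05. Between RNA kinds 16 were lower in Ago2-IP control and 5, the same 4 and Ppp1r15a, were higher (median -0.70). Over all genes 73.3% were called there and 37.9% were lower. The list's median ratio change was 0.18.

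The cytosolic tRNA synthetases charge tRNAs with amino acids and include many ATF4 targets. In polyA RNA with miR-106b 18 of 20 were lower and 0 higher, beside 21.5% and 19.0% of all genes. The list's median log2 change was -0.69, and 17 were lower without polyA miR-106b replicate 1. Vars changed by -1.03 ± 0.18 (SE; edgeR quasi-likelihood F test, adjusted p = 0.00102), Lars by -0.96 (adjusted p = 0.000682), Cars by -0.96 (adjusted p = 0.00109) and Gars by -0.88 (adjusted p = 0.000897). All 20 were lower in Ago2-IP than in polyA RNA of control cells (median -1.19), beside 37.9% of all genes. None was called in Ago2-IP RNA between transfections, where 1 had an unadjusted p under 0.05, and the median ratio change was 0.57.

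Upstream of ATF4, the list of eIF2 kinases and their partners had 4 of 12 genes lower and 1 higher (median -0.25), beside 40.5% called, 21.5% lower and 19.0% higher, over all genes. The lower ones were Ppp1r15b, a cofactor of the eIF2 phosphatase, at -0.87 (edgeR quasi-likelihood F test, adjusted p = 0.000799), Eif2s1, the phosphorylated subunit itself, at -0.71 (adjusted p = 0.00449), the amino acid sensor Eif2ak4 at -0.71 (adjusted p = 0.00417) and its activator Gcn1l1 at -0.60 (adjusted p = 0.00182). Eif2b4, of the exchange factor, was higher at 0.38 (adjusted p = 0.0223). The other arms of the unfolded protein response had 7 of 18 genes lower and 0 higher (median -0.27), a called share close to the same 40.5% of all genes, among them the sensor Ern1 at -0.78 (adjusted p = 0.00168) and the folding factors Pdia6 at -0.65 (adjusted p = 0.00127), Edem1 at -0.63 (adjusted p = 0.00374) and Pdia3 at -0.50 (adjusted p = 0.00783). This count was 11 lower and 2 higher without polyA miR-106b replicate 1, and 5 lower and 2 higher in the fit of all 16 libraries. In Ago2-IP RNA none of either list was called between transfections, with 0 of the eIF2 list and 2 of the other at an unadjusted p under 0.05. In control cells 6 of 12 eIF2 genes were lower and Eif2b4 higher in Ago2-IP RNA (median -0.41), and 14 of 18 genes of the other arms were lower and 3, Dnajb9, Herpud1 and Atf6, higher (-0.68). Over all genes 73.3% were called between RNA kinds and 37.9% were lower. The median ratio changes of the eIF2 list and the other arms were 0.11 and 0.12.

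**Figure D3:**
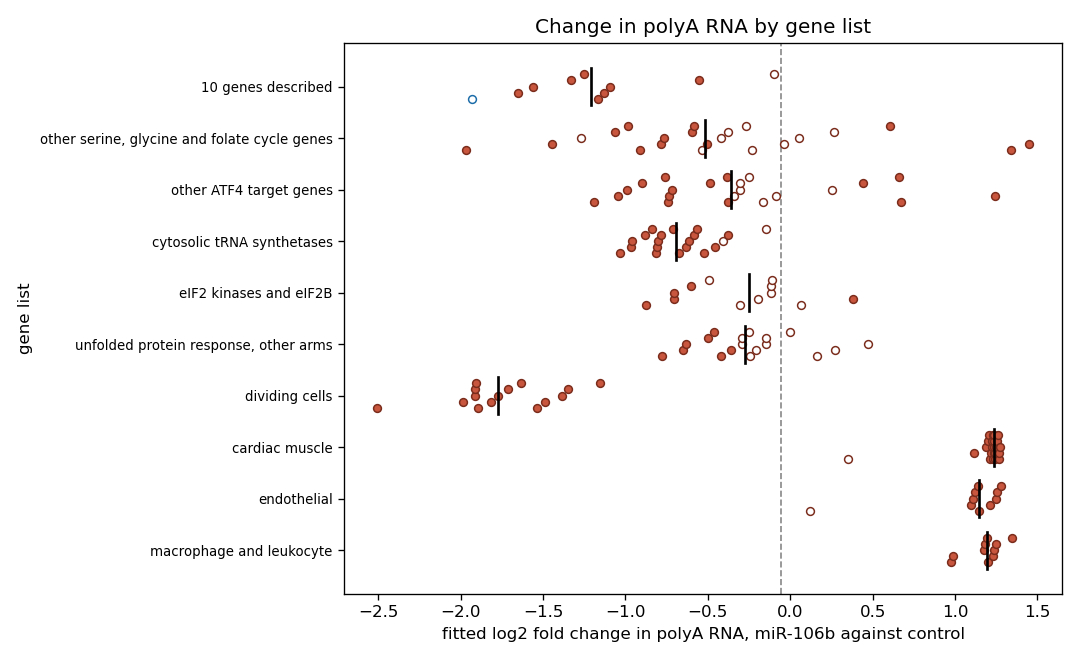
Fitted log2 change in polyA RNA, miR-106b against control, with 1 point per gene in 10 lists, filled where the adjusted p was under 0.05, a black bar at each list's median and a dashed line at the median of all genes, -0.05. Psat1, which was not tested, is drawn open in blue at -1.93; dividing cell markers have a median of -1.77 and cardiac markers of 1.23.

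The mature sequence of the supplied microRNA is shown to let its match to the members be read. That of mmu-miR-106b-5p, from RefSeq on GRCm38.p6 at chr5:138165787-138165807 on the minus strand, follows with its seed, bases 2 to 8, in capitals.
mmu-miR-106b-5p: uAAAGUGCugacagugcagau
The letters GCACTTT or CACTTTA, which pair with the seed, were in the longest annotated 3′UTR of 0 of the 10 genes, while 23.0% of 13234 tested genes with a 3′UTR held either and 15.3% held GCACTTT. The members' 3′UTRs ran from 81 bases in Atf4 to 1368 in Psat1. No match says only that these letters are not in these windows.

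The motif TGATGNAA, a form of the element that ATF4 dimers bind, was searched on both strands of RefSeq promoters from 250 bases before to 50 after each start. It was in 3.97% of 32851 promoters, and in 3 of the 11 promoters of the 10 genes. The 3 matches are shown in the gene's orientation on GRCm38.p6, with the motif or its complement in capitals, because they mark which members carry it near the start.
Asns: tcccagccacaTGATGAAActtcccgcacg
Trib3: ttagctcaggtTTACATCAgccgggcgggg
Chac1: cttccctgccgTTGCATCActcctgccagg
The match of Asns lies at chr6:7693225-7693232 on the gene's own strand, minus. It begins 23 bases before the RefSeq start of that promoter, a start that lies inside the annotated locus given above. That of Trib3 lies at chr2:152344039-152344046 and begins 14 bases after the RefSeq start, and that of Chac1 lies at chr2:119351049-119351056 and begins 193 bases before it, each on the strand opposite to the gene. The promoters of Psat1, Phgdh, Psph, Shmt2, Mthfd2, Atf4 and Ddit3 held no match to these letters.

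Counts of some members could hold reads from neighbours or copies, since the libraries were not strand-specific. Psph shares 452 of its 4329 exon bases with Cct6a on the opposite strand, which held 5505 counts over all libraries against 1927 for Psph, so that the Psph counts could hold reads of Cct6a. Ddit3 shares 68 with Mars, 13 with Gm4189 and 105 with another annotated gene of its own symbol, and Shmt2 shares 32 with Ndufa4l2. Phgdh has 19 annotated copies that match it closely over at least 200 bases, of which the 8 found in the table held 77 counts over all libraries against 7553 for Phgdh. The copy of Psat1 held 1 count against 2631, and that of Shmt2 held 3 against 11696.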

How the data were processed

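The values used are counts, raw numbers of reads per gene and library as deposited by the authors, with no normalization and no filter, for 16 libraries in 4 groups taken from the sample titles. The submitters' processing notes name TopHat2 2.0.10 and HTSeq. A gene was kept if, in any group, 3 or more of the 4 replicates had at least 1 CPM, which left 14897. R 4.3.3 with edgeR 4.0.16, limma 3.58.1 and DESeq2 1.42.0, Python 3.11.15 with numpy 2.4.6 and matplotlib 3.10.9, and BLAST 2.17.0 were used. Libraries were scaled by TMM, and each pair of groups was fitted on its own with edgeR's robust quasi-likelihood F test (two-sided; p adjusted by Benjamini-Hochberg over all genes tested, threshold 0.05). The ratio change was the interaction term, transfection by RNA kind, of a fit of the 16 libraries together. Fitted changes used a prior count of 0.125, log2 CPM for likeness a prior count of 2, and log2 ratios 0.5 CPM. Marker sums were scaled to library size only.

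Named were the 10 members and, of each other list, the genes past the threshold in polyA RNA with a mean of at least 5 CPM, at most 4 in each direction by size of change, plus the most abundant gene of each marker list and the 5 genes nearest to Psat1. Genes named outside this rule, such as Akr1b7, Sln, Gja5, Acta2, Aldh1l1, Sds, Gdf15 and those given by name beside small counts, were chosen after their values were seen. The members and lists were chosen with earlier results of these data known. 3′UTRs came from GENCODE M21 and the microRNA and promoters from RefSeq. Alternatives were DESeq2 size factors, TMM run separately on polyA and Ago2-IP libraries, library size only, no filter, a filter of 10 counts per library, the Wald test of DESeq2, the likelihood ratio test of edgeR, a replicate block, 1 fit of all libraries, a prior count of 2, and each library left out. The tests were checked on simulated counts, but no outcome of that check is given and no result here rests on it. Median total counts for polyA RNA were 6450099 in control and 3645937.5 with miR-106b, and for Ago2-IP RNA 3638859.5 in control and 3264121.5 with miR-106b.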

Additional observations from a re-analysis of the deposited data

Results flagged for a closer look

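In 5 of 40 groups, 10 genes in 4 groups each, a library lay far from the other 3, where chance gives about 1 in 20. Psat1 had 52.4 CPM in polyA control replicate 4, where the nearest library had 83.9 CPM. Shmt2 had 224 CPM in the same library, where the nearest had 281 CPM. In Ago2-IP control replicate 4, Phgdh had 9.83 CPM with the nearest library at 6.72 CPM, and Asns had 3.93 CPM with the nearest at 2.79 CPM, the latter from 18 counts. Psph had 3.63 CPM in Ago2-IP control replicate 2, below the nearest at 5.11 CPM, from 13 counts.

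After TMM scaling, Atf4 was lower in every polyA miR-106b library and higher in every Ago2-IP miR-106b library than in all controls of the same RNA kind. The ratio change was 0.53 on the log2 scale. Scaled to library size only, the Ago2-IP groups overlapped, with control replicate 3 at 73.03 CPM and miR-106b replicate 2 at 72.46 CPM. How many of all genes showed such opposite separations was not counted. The ratio change was not tested, as the ratio chose the set.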

How the results depend on the processing

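Called members stayed at 8 of 9 in polyA RNA, and 0 in Ago2-IP RNA, in all 16 alternatives. Between RNA kinds they stayed at 9, but 8 with at least 10 counts in every library, where Asns could not be fitted. Genes called in polyA RNA numbered 5511 to 7326 over the settings and 4123 to 6704 over left-out libraries, and between RNA kinds 8561 to 11424 and 10422 to 10884. Ddit3 in polyA RNA turned to 0.0259 with all 16 libraries in 1 fit, and ran from -0.19 to 0.0477 over left-out libraries. In Ago2-IP RNA the count of 0 became 20 with no filter, 2 with at least 10 counts, 1 with a replicate block, 2 by DESeq2's Wald test and 18 by the likelihood ratio test, and ran from 0 to 40 over left-out libraries; those fitted changes ran from -0.28 to 0.0949 for Phgdh, from -0.14 to 0.0207 for Shmt2 and from -0.46 to 0.15 for Chac1. Genes whose ratio rose by 2-fold numbered 9569 with no filter, 278 with at least 10 counts in every library, which tests fewer genes, and 1059 to 1588 over left-out libraries. The cause of the other changes was not tested. Replicate numbers did not pair libraries, with correlations from -0.38 to 0.22. Fitting all 16 libraries together moved the median of all genes by 0.13 in polyA RNA, and library size only by -0.29 between RNA kinds and 0.17 in the ratio, where TMM within each RNA kind moved it by 0.15. With no filter, which tests more genes, the median moved by -0.17 between RNA kinds and by 0.30 in the ratio. Depth limits low Ago2-IP counts: Asns had 4 in 1 library.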
